A study of Homo sapiens with 3 samples.

Results

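Keratins are the intermediate filament proteins of epithelial cells. The account below covers 10 keratin genes, *KRT4*, *KRT80*, *KRT7*, *KRT8*, *KRT18*, *KRT19*, *KRT81*, *KRT6A*, *KRT13* and *KRT15*, in the human lung adenocarcinoma (LUAD) line A549 after transfection of *miR-139-3p* or *miR-139-5p*. A probe belonged to a gene when the RefSeq accession that the array design gives it mapped to that gene's symbol. The 10 genes had 13 probes among the 58201 probes of the array and were 10 of the 22439 RefSeq symbols it carries. The set was selected on measured values of these same arrays, and *KRT4* and *KRT80* lead it because their signal was low with *miR-139-3p*. All differences of the 10 genes are therefore descriptions, without a test.

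The study transfected both strands of the miR-139 duplex into A549 cells, and searched the arrays for genes whose expression was low after *miR-139-3p*. There were 3 groups of 1 array each: mock cells given the transfection reagent alone, cells given *miR-139-5p* and cells given *miR-139-3p*, each miRNA at 10 nM. All 3 groups were the same cell line. With 1 array per group, no difference has a replicate check, no p-value is given, and the errors below cover the reading of spots or the spread between probes, not the spread between cultures.

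Each keratin filament is built from pairs of an acidic type I chain and a basic type II chain, and neither type forms a filament by itself. Of the 10 genes, 4 code for type I chains (*KRT13*, *KRT15*, *KRT18* and *KRT19*) and 6 for type II chains (*KRT4*, *KRT6A*, *KRT7*, *KRT8*, *KRT80* and *KRT81*). Simple epithelia such as the lining of the alveoli and ducts are known for *KRT8* with *KRT18*, joined by *KRT7* and *KRT19*. Moist stratified epithelia such as the oesophagus carry the pair *KRT4* and *KRT13*, and the basal cells of stratified epithelia carry *KRT15*. The filaments end on desmosomes and hemidesmosomes, where plakin proteins tie them to the membrane.

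The miRNA strands are shown because they are the treatments compared, and a miRNA recognises mRNAs mainly through its seed, bases 2 to 8 counted from the 5′ end. Both strands come from 1 hairpin of 68 bases, encoded on the minus strand of chromosome 11 (RefSeq, build GRCh38.p14). The seed is in capitals in the mature strands, which lie at chr11:72615066-72615088 (*miR-139-3p*) and chr11:72615102-72615124 (*miR-139-5p*), and both mature arms are in capitals in the hairpin, at bases 43 to 65 and 7 to 29.
hsa-miR-139-3p: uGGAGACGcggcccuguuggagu
hsa-miR-139-5p: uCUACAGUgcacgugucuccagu
MIR139 hairpin: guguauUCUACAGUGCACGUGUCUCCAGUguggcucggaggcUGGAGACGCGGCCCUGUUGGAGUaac
The seeds GGAGACG and CUACAGU are different sequences. No transcript sequence of the keratins was used here, so whether a keratin mRNA holds a match to either seed was not analysed. In the study, *KRT80* is listed as a putative target of *miR-139-3p*, on a predicted site and its low signal on these arrays.

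The signal of a spot is the processed signal of the scanner software, with the background subtracted, in arbitrary units. Of 60901 spots other than controls on each array, 49.9%, 48.1% and 53.1% were well above background on the arrays in the order mock, *miR-139-5p*, *miR-139-3p*, and 0 were saturated. Slide 1 held the arrays for mock and *miR-139-5p*, and slide 2 held the one for *miR-139-3p*, so slide and transfection cannot be told apart for *miR-139-3p*. Differences are on the log2 scale after each array was divided by its own 75th percentile (93.6, 88.9 and 81.0), and a difference past 0.5 is called lower or higher. Signals are printed before this division, percentages and folds after it. The error of a difference is the one the scanner software gives its spots. It was 0.20 for most keratin differences, and with 1 spot per keratin probe it is no spread measured between spots. For probes of 10 spots well above background, the median SD between spots was 0.05, 0.05 and 0.06 on the 3 arrays. Overlap within the error was read on signals before scaling. Where a gene had several probes, the median of their SD was 0.28 for *miR-139-3p* against mock over 3684 genes and 0.15 for *miR-139-5p* against mock over 3743 genes. Of 12 epithelial markers, among them *KRT7*, *KRT8*, *KRT18* and *KRT19*, 10, 10 and 12 were well above background on the 3 arrays. Of 9 markers of alveolar type II cells, 5, 4 and 6 were, and *SFTPB*, *SFTPA1* and *NKX2-1* were not on any array. Of the 5 measured for *miR-139-3p* against mock, 4 were higher, with a median of 0.74, where 20.6% of protein-coding genes were higher. Highest were *LAMP3* (2.47) and *SFTPA2* (2.31), and *SFTPC* was lower (-0.97). *LAMP3* was dim in mock cells (5.45, where the lowest signal well above background was 4.82). *SFTPA2* was measured by 1 of its 2 probes, which read 219 in mock cells and 938 after *miR-139-3p*, the brightest of these markers there. The summed level of the 9 markers, in units of the 75th percentile, was 5.65 in mock cells, 6.42 after *miR-139-5p* and 16.5 after *miR-139-3p*. Of the 8 epithelial markers other than keratins, 6 were measured, of which 3 were lower and 1 was higher after *miR-139-3p*, from *CLDN4* (-1.71) to *EPCAM* (0.97). After *miR-139-5p*, 5 of the 6 were lower than mock and 0 higher, with a median of -0.66, where 11.4% of protein-coding genes were lower. The remaining epithelial markers, *CDH3* and *ESRP1*, cleared the background only after *miR-139-3p* and were at least 6.77-fold and at least 1.54-fold higher than mock. The part of these markers in the keratin values was not tested. Markers of other cells that were well above background numbered 2 of 7 for fibroblasts on every array, 1 to 2 of 6 for endothelial cells and 2 to 3 of 5 for blood cells. For *miR-139-3p* against mock, 2 were measured in each list. There 1 was lower and 1 higher for fibroblasts and for blood cells, and 2 were higher for endothelial cells, dim in mock cells (14.5 and 6.28). Of 5 measured genes abundant in A549, 3 were lower and 0 higher, with a median of -0.72. After *miR-139-5p*, 1 fibroblast marker and 1 of the A549 genes were higher and 0 lower.

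*KRT4*, the type II keratin of moist stratified epithelium, had 1 probe of 1 spot. Its signal was 575 ± 57.5 in mock cells, 200 ± 20.1 after *miR-139-5p* and 24.7 ± 2.68 after *miR-139-3p* (± the error of the scanner software). The 3 values did not overlap within these errors, the mock array was high and the *miR-139-3p* array low, and each was well above background. After scaling, the *miR-139-3p* signal was 4.97% of mock, 20.1-fold lower, a log2 difference of -4.33 ± 0.21. This was the lowest of 12672 protein-coding genes measured on both arrays. The ranking leaves out the 264 genes well above background in mock cells only. It also leaves out genes lost with outlier spots, since 12970 had a value with those spots kept. In the study's list of targets, *ADAM12* has a lower value than *KRT4* has here. With *miR-139-5p* the signal was 36.7% of mock, a log2 difference of -1.45 ± 0.20, at rank 77 from the lowest of 12673 genes. In a bulk sample, fewer cells that express a gene and less of its RNA per cell cannot be told apart. Set directly against each other, *miR-139-3p* was 7.37-fold lower than *miR-139-5p* (log2 -2.88). A setting with another background model, an added offset and median intensities together (normexp with an offset of 50) gave -2.78 in place of -4.33 for *miR-139-3p* against mock, and -1.51 in place of -2.88 between the miRNAs.

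*KRT80*, a type II keratin found at desmosomes and at the cell edge, also had 1 probe of 1 spot. It read 960 ± 96.0 in mock cells, 587 ± 58.7 after *miR-139-5p* and 108 ± 10.9 after *miR-139-3p*. The order of the arrays was that of *KRT4*, again without overlap of the errors. The *miR-139-3p* signal was 13.1% of mock, 7.66-fold lower, with a log2 difference of -2.94 ± 0.20 at rank 28 from the lowest of 12672 genes. The *miR-139-5p* signal was 64.4% of mock, a log2 difference of -0.64 ± 0.20 at rank 867 of 12673. Between the miRNAs, *KRT80* was 4.93-fold lower with *miR-139-3p*. With normexp the value for *miR-139-3p* against mock was -2.55, and that between the miRNAs -1.99 in place of -2.30. The comparisons with mock share 1 mock array, so a mock spot that read high would lower both differences of a gene together.

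**Figure D1:**
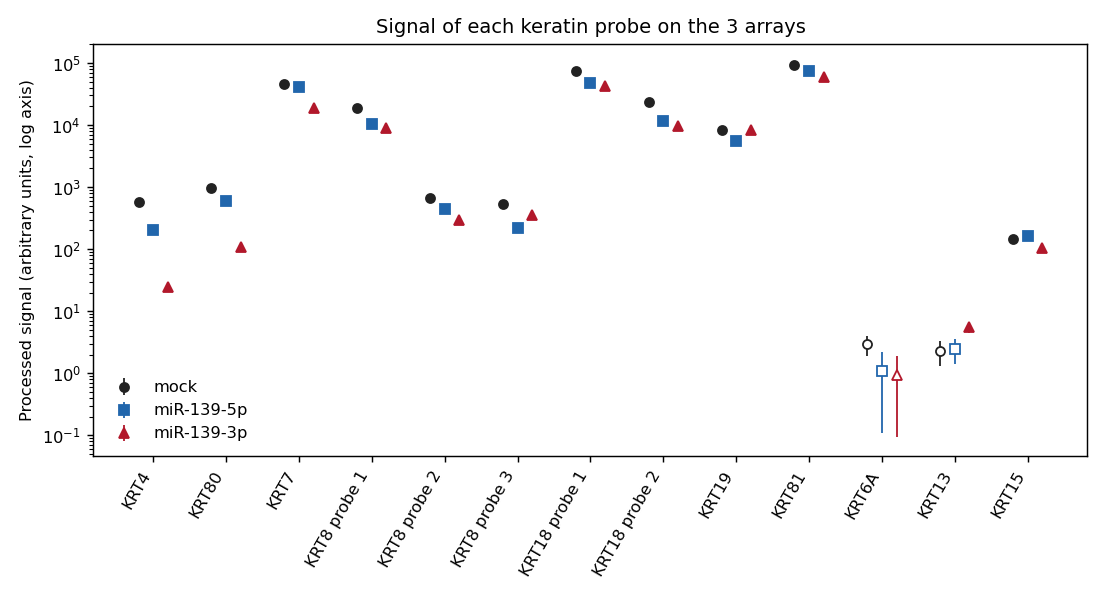
Processed signal (arbitrary units, log axis) of the 13 probes of the 10 keratins on the mock (circles), *miR-139-5p* (squares) and *miR-139-3p* (triangles) arrays, 1 spot per point. Bars are the error of the scanner software, cut at 10% of the value where they would reach 0 and mostly smaller than the symbol, and open symbols were not well above background. *KRT4* and *KRT80* have a *miR-139-3p* signal far under that of the other arrays, at 24.7 and 108.

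The promoter of *KRT4* is shown because it is the member that stood lowest, and its start site is 1 of 2 among the 10 genes in the RefSeq promoter table, with *KRT8*. The 250 bases before the start of *KRT4* lie on the minus strand at chr12:52814117-52814366 (build GRCh38.p14), with 54.8% G or C. The motifs TATAAA (core promoter box), GGGCGG (Sp factor box) and TGANTCA (AP-1 site), which do not overlap one another, were searched on both strands and not found. The shorter TATAA, which is part of TATAAA and was taken after that search, was found 1 time, at bases 222 to 226 of the 250 on the strand of the gene, in capitals.
KRT4 promoter: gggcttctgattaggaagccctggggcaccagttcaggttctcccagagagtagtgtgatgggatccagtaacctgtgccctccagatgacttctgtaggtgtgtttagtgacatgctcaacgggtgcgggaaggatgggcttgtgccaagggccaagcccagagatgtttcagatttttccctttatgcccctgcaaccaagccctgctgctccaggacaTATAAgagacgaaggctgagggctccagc
TATAA is in 18.9% of 35116 promoters of this length, TATAAA in 10.7%, GGGCGG in 42.6% and TGANTCA in 6.57%. None of the motifs was found in the 250 bases before the *KRT8* start of the table. A match describes the letters only.

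*KRT7*, a type II keratin of simple and glandular epithelium, read 46153 ± 4615 in mock cells, 40470 ± 4047 after *miR-139-5p* and 18679 ± 1868 after *miR-139-3p*. The *miR-139-3p* array was low, and the mock and *miR-139-5p* arrays overlapped within the error. The log2 difference from mock was -1.10 ± 0.20 after *miR-139-3p* (46.8% of mock) and -0.12 ± 0.20 after *miR-139-5p* (92.3% of mock). Directly compared, *miR-139-3p* was 1.97-fold lower than *miR-139-5p*. In rank, *KRT7* was number 1388 of 12672 for *miR-139-3p* and number 4793 of 12673 for *miR-139-5p*.

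*KRT8*, the type II chain of every simple epithelium, had 3 probes of 1 spot each, and they did not give the same picture. The probe A_23_P14072 read 18925 ± 1893, 10222 ± 1022 and 9033 ± 903 on the arrays in the order mock, *miR-139-5p*, *miR-139-3p*. Probe A_33_P3372368 read 663 ± 66.3, 444 ± 44.4 and 297 ± 29.7 in the same order. On both of these, the mock array was highest and the *miR-139-3p* array lowest, although the miRNA arrays overlapped within the error for A_23_P14072. The third, A_24_P67395, read 533 ± 53.4, 217 ± 21.7 and 351 ± 35.1, so that its lowest array was *miR-139-5p*. The log2 differences of *miR-139-3p* from mock were -0.86, -0.95 and -0.39 in this order of probes, and those of *miR-139-5p* were -0.81, -0.50 and -1.22. Their means were -0.74 ± 0.30 (SD, 3 probes) and -0.85 ± 0.36 (SD, 3 probes). Between the miRNAs the mean was 0.11 ± 0.65 (SD, 3 probes), smaller than the spread between the probes.

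*KRT18*, the type I partner of *KRT8*, had 2 probes. A_32_P151544 read 73823 ± 7382 in mock cells, 46926 ± 4693 after *miR-139-5p* and 42507 ± 4251 after *miR-139-3p*. A_24_P42136 read 23571 ± 2357, 11501 ± 1150 and 9514 ± 951. On both probes the mock array was high, and the miRNA arrays lay close to each other. The mean log2 difference from mock was -0.84 ± 0.36 (SD, 2 probes) with *miR-139-3p* and -0.77 ± 0.27 (SD, 2 probes) with *miR-139-5p*, and -0.07 ± 0.09 (SD, 2 probes) between the miRNAs. *KRT8* and *KRT18* thus had nearly the same mean under either miRNA, whereas *KRT7* was low on the *miR-139-3p* array alone. Keratin pseudogenes are near copies of their parents, and a probe named for *KRT18P55* read 28751, 14331 and 11548, with differences of -1.11 and -0.93 from mock against -1.10 and -0.96 for A_24_P42136. Sharing of signal between a gene and its near copy was not tested.

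*KRT19*, the small type I keratin of ducts and glands, read 8322 ± 832 in mock cells, 5496 ± 550 after *miR-139-5p* and 8172 ± 817 after *miR-139-3p*. Here the *miR-139-5p* array alone was low, and mock and *miR-139-3p* overlapped within the error. The log2 difference from mock was 0.18 ± 0.20 after *miR-139-3p* and -0.52 ± 0.20 after *miR-139-5p*, and *miR-139-3p* was 1.63-fold higher than *miR-139-5p*. The value of -0.52 is just past the threshold and is between -0.60 and -0.41 over all settings tried. A probe named for the near copy *KRT19P2* had differences of 0.09 and -0.57, close to those of *KRT19*.

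*KRT81*, a type II keratin first known from hair, read 91663 ± 9166 in mock cells, 73732 ± 7373 after *miR-139-5p* and 60176 ± 6018 after *miR-139-3p*. Mock was highest and did not overlap with *miR-139-3p* within the error. The differences from mock were -0.40 ± 0.20 after *miR-139-3p* and -0.24 ± 0.20 after *miR-139-5p*, both inside the threshold. For *miR-139-3p* the value ran from -0.88 to -0.23 over the other settings and was past -0.5 in 5 of 10 settings, main setting included. *KRT81* is closely alike in sequence to the hair keratins *KRT83* and *KRT86*, and sharing of signal between them was not tested.

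*KRT15*, a type I keratin of basal and stem cells in stratified epithelium, read 146 ± 14.6, 162 ± 16.2 and 105 ± 10.6 on the arrays in the order mock, *miR-139-5p*, *miR-139-3p*. Its differences from mock, -0.27 ± 0.20 after *miR-139-3p* and 0.22 ± 0.20 after *miR-139-5p*, did not pass the threshold. *KRT13*, the type I partner of *KRT4*, read 2.29 ± 0.988, 2.45 ± 1.06 and 5.57 ± 1.05, and cleared the background only after *miR-139-3p*. Its signal there was at least 1.34-fold higher than mock and at least 1.20-fold higher than *miR-139-5p*, from the lowest signal that was well above background on the dimmer array. More spots were well above background on that array in general: 648 of 18216 protein-coding genes (3.56%) cleared it after *miR-139-3p* and not in mock cells, against 264 the other way, and 7.91% of ERCC control spots were so, against 2.55% with mock and 1.70% with *miR-139-5p*. Their part in the value of *KRT13* was not tested. *KRT6A*, a type II keratin of wounded and fast-dividing epithelium, read 2.92, 1.09 and 0.929 and was not well above background on any array, so it has no difference.

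**Figure D2:**
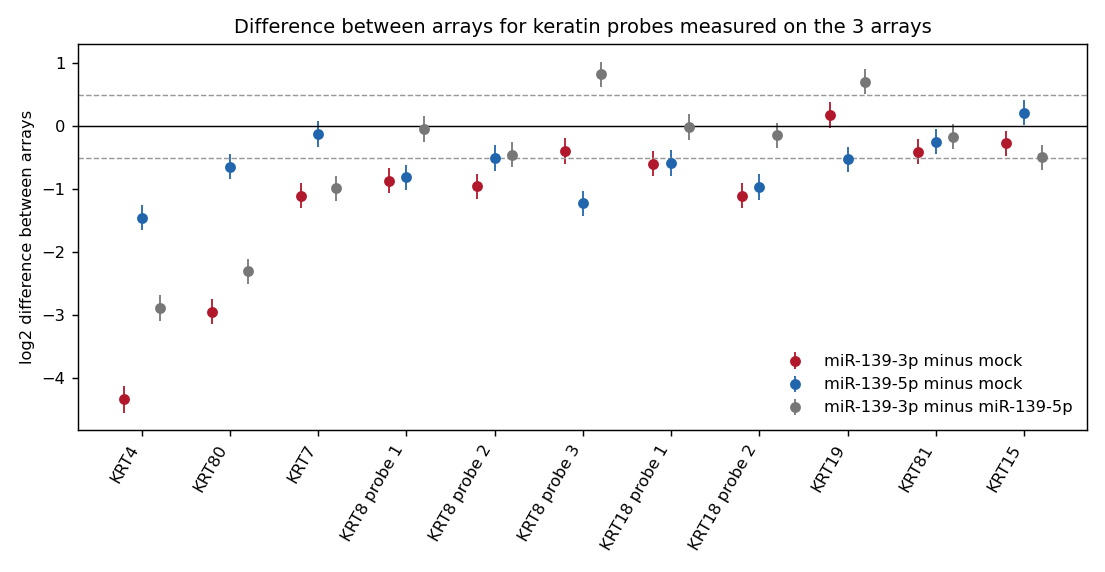
The log2 difference between arrays (y axis) for the 11 keratin probes well above background on all 3 arrays, with *miR-139-3p* minus mock in red, *miR-139-5p* minus mock in blue and *miR-139-3p* minus *miR-139-5p* in grey. Bars are the error of the difference from the scanner software, and dashed lines mark ±0.5. The red points of *KRT4* (-4.33) and *KRT80* (-2.94) are the lowest, and the 3 probes of *KRT8* differ in order.

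Of the 10 genes, 8 had a probe well above background on all 3 arrays. With *miR-139-3p*, 5 of 8 were lower than mock (*KRT4*, *KRT80*, *KRT7*, *KRT18* and *KRT8*), 0 were higher and 3 lay between. Among all 12672 protein-coding genes, 31.4% were lower and 20.6% higher. The median of the 8 was -0.79, and that of all protein-coding genes was -0.15. Nothing is read from the count, since these differences chose the genes. The member just past the threshold was *KRT8* (-0.74), and the member just inside it *KRT81* (-0.40).

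With *miR-139-5p*, 5 of 8 were lower than mock (*KRT4*, *KRT8*, *KRT18*, *KRT80* and *KRT19*) and 0 were higher, where 11.4% of 12673 protein-coding genes were lower and 10.3% higher. The median of the 8 was -0.58, and that of all genes 0.00. Nothing is read from this count either, since the genes were selected on these arrays and both comparisons share the mock array. At the threshold stood *KRT19* (-0.52) inside the lower group, with *KRT81* (-0.24) next to it outside. Between *miR-139-3p* and *miR-139-5p*, which leaves the mock array out, 3 of 8 were lower with *miR-139-3p* (*KRT4*, *KRT80* and *KRT7*) and 1 was higher (*KRT19*), where 31.8% of 12406 protein-coding genes were lower and 20.1% higher. *KRT15*, at -0.49, lay just inside the threshold there and was past it with no scaling (-0.62) and with the arrays scaled on the E1A spike-in RNA (-0.80), where *KRT19*, at 0.40, was no longer higher. Type II members had a median of -1.10 for *miR-139-3p* against mock over 5 genes, and type I members -0.27 over 3 genes. Nothing is read from this contrast, since *KRT4* and *KRT80*, chosen for a low *miR-139-3p* signal, are both type II. The 6 measured type II keratins outside the 10 had a median of 1.19.

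**Figure D3:**
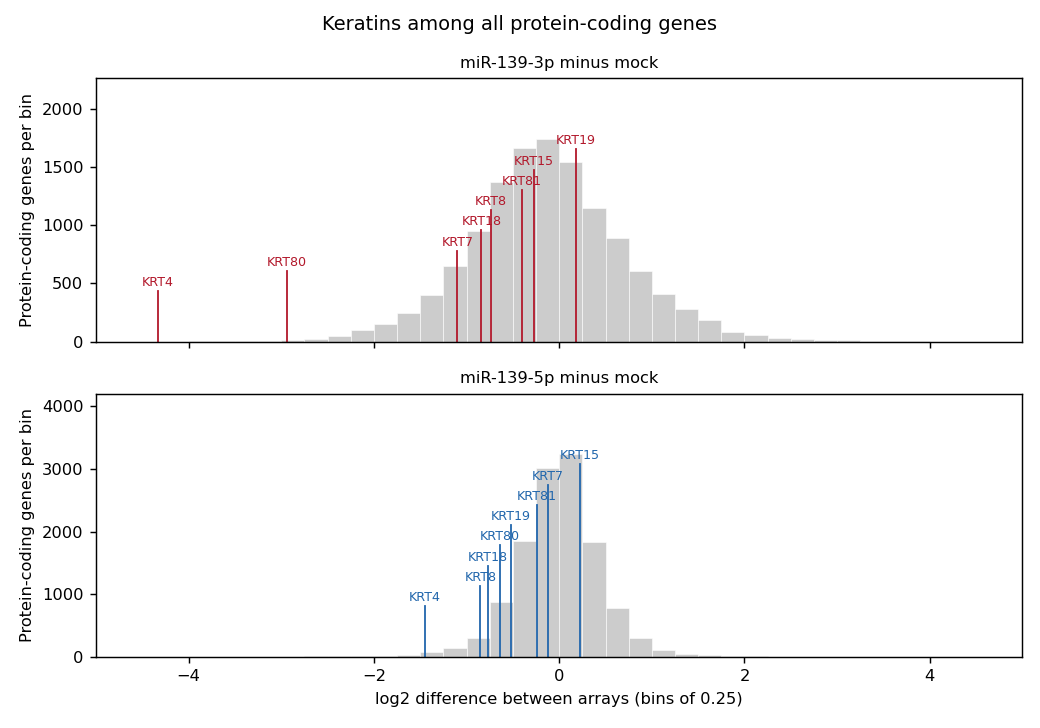
Number of protein-coding genes in bins of 0.25 of the log2 difference from mock (grey bars), for *miR-139-3p* (upper panel, 12672 genes) and *miR-139-5p* (lower panel, 12673 genes), with each of the 8 measured keratins as a labelled line whose height has no meaning. *KRT4* and *KRT80* stand in the far lower tail for *miR-139-3p*, and the other 6 lie within the bulk of the genes.

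Of 44 other keratin genes listed, 42 were on the array and 25 of these were not well above background on any array. For *miR-139-3p* against mock, 12 were measured, of which 2 were lower and 8 higher, with a median of 0.65 (all protein-coding genes -0.15). The lower ones were *KRT83*, a hair keratin, at -1.58, and *KRT10*, the type I keratin of the upper epidermis, at -0.77. *KRT83* read 11919, 6087 and 3441 on the 3 arrays (mock, then *miR-139-5p*, then *miR-139-3p*) with its first probe, while the spot of its second probe on the *miR-139-3p* array (844) was marked as an outlier and left out. The higher type II keratins were *KRT79* (1.97), *KRT78* (1.71), *KRT85* (1.44), *KRT73* (0.94) and *KRT3* (0.59), and among type I keratins *KRT9* (1.36), *KRT31* (0.70) and *KRT39* (0.58). All but *KRT73* were dim on the mock array, with signals of 5.42 to 31.7, where the lowest signal well above background was 4.82. The count of 8 was not stable: it was 5 with no scaling, with quantile normalization and with the deposited log2 values, 3 with normexp, and 15 without the filter on dim probes. A further 5 cleared the background after *miR-139-3p* and not in mock cells (*KRT26*, *KRT32*, *KRT71*, *KRT74* and *KRT76*), 11.9% of the 42, beside the 3.56% of protein-coding genes given above. Both shares include outlier spots, and that of *KRT76* after *miR-139-3p* was one, so it has no difference. The part of background in these values was not tested.

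With *miR-139-5p*, 10 of the other keratins were measured, 1 was lower (*KRT83* at -0.94 ± 0.06, SD of 2 probes) and 1 was higher (*KRT79* at 0.63), and the median was 0.13. With normexp 0 were higher, *KRT79* being at 0.14, and without the filter on dim probes 5 were lower and 5 higher of 42. Another 2 cleared the background in mock cells and not after *miR-139-5p*. *KRT20*, a type I keratin of intestinal epithelium, read 17.1, 1.5 and 15.1 on the 3 arrays and was at least 3.18-fold lower than mock after *miR-139-5p*, and *KRT39* was at least 1.29-fold lower. *KRT83* was lower than mock with both miRNAs, the only keratin outside the 10 of which this holds among those measured. It stood at rank 510 of 12672 after *miR-139-3p* and at rank 332 of 12673 after *miR-139-5p*.

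Keratin genes lie in clusters, the type II genes and *KRT18* on chromosome 12 and the type I genes on chromosome 17, 27 listed genes each. On chromosome 12, 7 of the 10 genes lie, and 12 of the 27 were measured for *miR-139-3p* against mock. *KRT80* and *KRT7* lie next to each other at one end (-2.94 and -1.10), and *KRT8* and *KRT18* next to each other at the other end (-0.74 and -0.84). *KRT4* (-4.33) lies between *KRT3* (0.59) and *KRT79* (1.97), which read 31.7 and 5.42 on the mock array and 41.4 and 18.3 on the *miR-139-3p* array. The value of *KRT3* was 0.27 to 0.76 over the other settings and past 0.5 in 5 of 10, and that of *KRT79* was 0.39 with normexp. On chromosome 17, *KRT13*, *KRT15* and *KRT19* are neighbours, and *KRT19* is followed by *KRT9* (1.36).

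**Figure D4:**
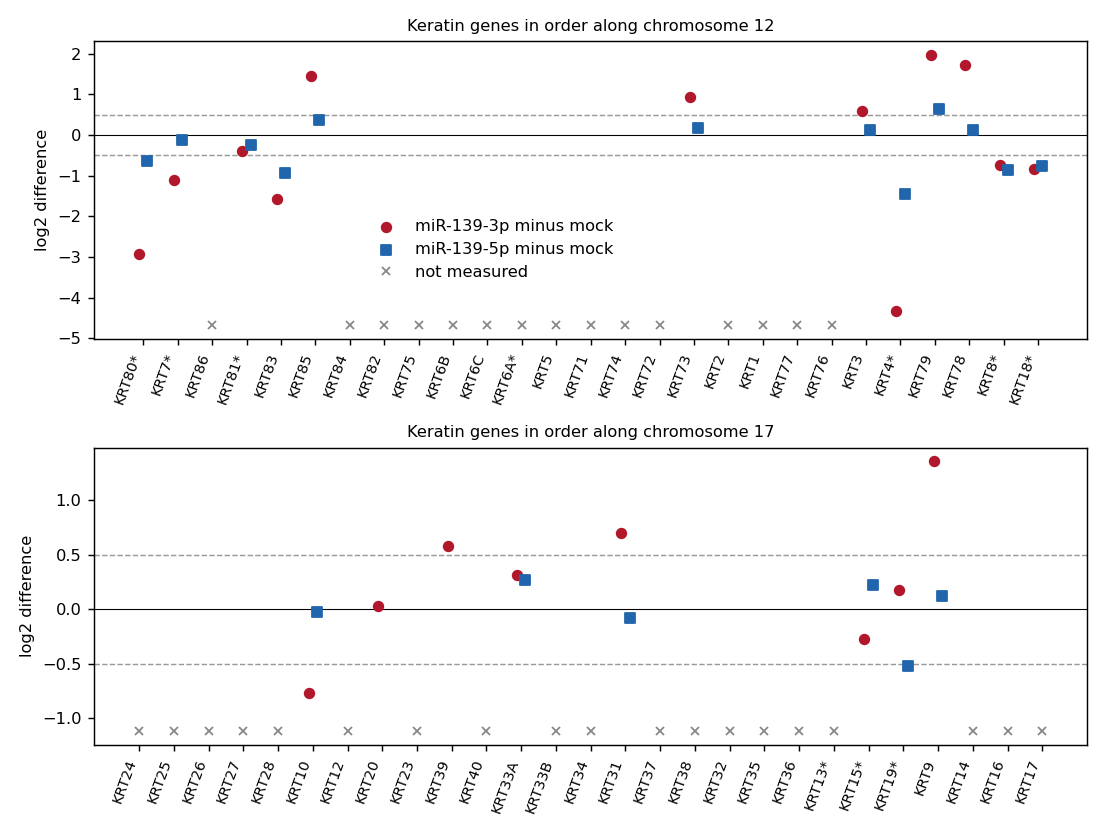
The log2 difference from mock (y axis) of keratin genes in their order along chromosome 12 (upper panel) and chromosome 17 (lower panel), not to scale, with *miR-139-3p* in red circles and *miR-139-5p* in blue squares. Stars mark the 10 genes, grey crosses at the foot mark genes not measured on both the mock and *miR-139-3p* arrays, and dashed lines mark ±0.5. *KRT4* stands alone at -4.33 between *KRT3* and *KRT79*, which are above 0.

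Among other intermediate filament genes, 10 of 16 were measured for *miR-139-3p* against mock, with 3 lower, 1 higher and a median of -0.27. *LMNB1*, the B-type lamin of the nuclear envelope, was lowest (-1.55), followed by *NES*, nestin, whose 2 probes differed widely (-0.97 ± 1.29, SD). *DES*, desmin of muscle, was higher (1.07). There were 5 lower with no scaling and 6 without the filter on dim probes. Higher genes numbered 3 with outlier spots kept and 2 with the percentile over detected probes. With *miR-139-5p*, 0 of 11 passed the threshold, and the median was 0.07. *SYNM*, synemin, stood at -0.50, and 1 gene was lower with no scaling, the percentile over detected probes, normexp or no filter on dim probes, and 1 higher with the spike-in scaling or the brightest probe of a gene.

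Of 14 desmosome genes, 7 were measured, with 3 lower than mock with *miR-139-3p*, 1 higher and a median of -0.04. *PKP4*, a plakophilin relative, was at -1.28 ± 0.40 (SD, 3 probes), and *JUP*, plakoglobin, at -1.06. *DSC2*, a desmosomal cadherin, was at 1.41. *DSC3* cleared the background only after *miR-139-3p*. Of its 2 probes, the brighter read 5.04 in mock cells, not well above background, and 21.6 after *miR-139-3p*, a scaled ratio of 4.94. The count of higher genes was 0 with normexp and 4 without the filter on dim probes. With *miR-139-5p*, 0 of 7 passed and the median was 0.16. Among 10 genes for plakins and hemidesmosomes, 8 were measured, 5 of them lower with *miR-139-3p* and 0 higher, with a median of -0.89. *PPL*, periplakin, read 43.0, 19.7 and 11.6 on the arrays in the order mock, *miR-139-5p*, *miR-139-3p*, with differences of -1.68 and -1.06 from mock, the first for *miR-139-3p*. *PLEC*, plectin, which ties keratin filaments to hemidesmosomes, was at -1.24 ± 0.43 (SD, 2 probes) with *miR-139-3p*. *EPPK1*, epiplakin, read 1.25, 1.34 and 22.2 in the same order of arrays, cleared the background only after *miR-139-3p* and was at least 5.31-fold higher than mock. Without the filter on dim probes, 2 genes of this list were higher after *miR-139-3p*. With *miR-139-5p*, 1 of 8 was lower (*PPL*) and 2 were higher (*ITGA6*, a laminin receptor subunit, at 0.82, and *DST*, dystonin, at 0.72), with a median of 0.07. With normexp 0 were lower and 1 was higher, and at a threshold of 1 the count of higher genes was 0.

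Of 17 cornified envelope genes, 6 were measured. After *miR-139-3p*, 0 stood lower and 3 higher, with a median of 0.74: *TGM1*, the transglutaminase that crosslinks the envelope (1.83), *SPRR1A* (1.15) and *SPRR2D* (1.14), which code for small proline-rich envelope proteins. Without the filter on dim probes, 7 were higher and 2 lower. With *miR-139-5p*, 1 was lower (*CSTA*, cystatin A, at -0.96) and 0 higher, with a median of -0.38, and with normexp 0 were lower. Of 13 epithelial transcription factors on the array, 10 were measured. After *miR-139-3p*, 7 stood lower and 2 higher, with a median of -0.90. *ELF3*, an epithelial ETS factor, was at -1.69 and *FOXA2*, a factor of endodermal epithelium, at -1.24, whereas the grainyhead factors *GRHL1* and *GRHL3* were at 1.41 and 1.11. The third of these factors, *GRHL2*, cleared the background in mock cells only and was at least 1.62-fold lower after *miR-139-3p* and at least 1.5-fold lower after *miR-139-5p*. With *miR-139-5p*, 2 were lower (*GRHL3* at -0.78 and *ELF3* at -0.56) and 2 higher (*SOX9* at 1.1 and *KLF5* at 0.62), with a median of 0.18. There 1 was lower with the spike-in scaling and 1 higher with normexp. Each list is to be read against the shares and medians of all protein-coding genes given above, and the lists were chosen with results of these arrays known.

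**Figure D5:**
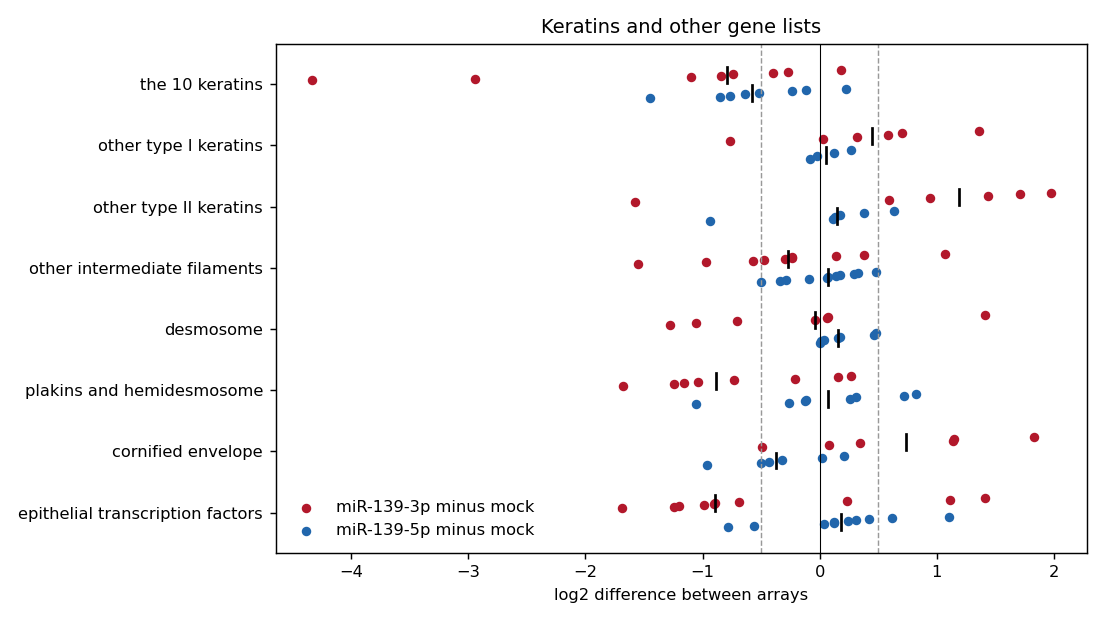
The log2 difference from mock (x axis) of each measured gene of the 10 keratins and of 7 lists of related genes, with *miR-139-3p* in red and *miR-139-5p* in blue. Black bars are medians, dashed lines mark ±0.5, and vertical offsets within a row only separate points. The red median of the 10 keratins is -0.79, that of plakins and hemidesmosome genes -0.89, and that of the other type II keratins 1.19.

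Likeness to *KRT80* and *KRT4* was measured as the distance between the pairs of log2 differences of the miRNA arrays from mock, over 3 arrays and 12319 protein-coding genes well above background on each. Nearest to *KRT80* were *S100A3*, a calcium-binding protein (distance 0.06), *MCM2*, a subunit of the replicative helicase (0.08), and *C1QTNF1*, a secreted protein related to complement C1q (0.13). Their differences were -0.58, -0.71 and -0.66 with *miR-139-5p* and -2.95, -2.92 and -2.81 with *miR-139-3p*. *KRT4* had no gene as near: the 3 nearest were *PACSIN1*, an endocytosis adaptor (0.91), *SLC26A9*, an anion transporter (1.12), and *NRGN*, neurogranin (1.26). With *miR-139-3p* their differences were -3.51, -3.34 and -3.85. Genes near to *KRT80* by this measure share its 3 arrays and nothing more is drawn from it.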

How the data were processed

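The arrays were read by Agilent Feature Extraction 12.1.1.1. The authors deposited spot intensities, with the background subtracted and no normalization between arrays, its flags, and a table of log2 values per probe, which were close to quantile-normalized log2 signals and served as an alternative. Each spot intensity was divided by the 75th percentile of its array and taken to log2. Spots marked as outliers (614, 935 and 1526 on the arrays in the order mock, *miR-139-5p*, *miR-139-3p*) were left out. A probe was well above background where at least 50% of its spots were, and a gene was measured through its probes that were so on both arrays, averaged. RefSeq (GRCh38.p14) gave a symbol to 24751 of the 25277 probes that carry an NM accession. The array was designed on another build, so gene positions of that table served for order only.

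The members and lists were chosen with earlier results of these data known. Named genes are all members with each probe, up to 4 genes per list and comparison (the 2 largest differences in each direction past 0.5) and the 3 genes most like *KRT80* and *KRT4*. *KRT3*, *KRT39*, *KRT73*, *KRT85*, *SPRR2D*, *DSC3*, *EPPK1*, *SFTPA2*, *LAMP3*, *SFTPC*, *CLDN4*, *EPCAM*, *CDH3*, *ESRP1*, *GRHL2*, *SYNM*, the near copies and the keratins seen on 1 array only were named after their values were seen. The same holds for *NAPSA*, *COL1A1*, *GPX2* and *ADAM12*. In total, 10 alternatives were planned. As the files hold no mean signals, normexp (limma 3.58.1, R 4.3.3, offset 50) used median intensities. Python 3.11.15, numpy 2.4.6 and pandas 2.3.3 were used, and the steps were tested on simulated data.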

Additional observations from a re-analysis of the deposited data

Results flagged for a closer look

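Genes of the lists passed 0.5 in opposite directions with the 2 miRNAs, on arrays that share the mock array, and the difference was not tested. The log2 differences from mock, given for *miR-139-3p* and then *miR-139-5p*, were -1.04 and 0.82 for *ITGA6*, -0.69 and 0.62 for *KLF5*, 1.11 and -0.78 for *GRHL3*, and -0.99 and 1.1 for *SOX9*. In the marker lists, they were 0.74 and -0.6 for *NAPSA*, -0.61 and 1.41 for *COL1A1*, and -0.99 and 0.52 for *GPX2*.

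A probe of a noncoding transcript named for *KRT83* (lnc-KRT83-1:1) lies outside the comparisons of keratin genes. It read 47.0 in mock cells, 36.1 after *miR-139-5p*, and was brightest after *miR-139-3p*, with a log2 difference of 1.78 between *miR-139-3p* and mock, opposite in sign to that of *KRT83* (-1.58).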

How the results depend on the processing

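No paired analysis was possible because each group had 1 array. *KRT4* and *KRT80* were below -0.5 with *miR-139-3p* in all 10 settings, between -4.54 and -2.78 and between -3.15 and -2.55, and normexp gave the values nearest 0, -2.78 and -2.55. *KRT7*, *KRT8* and *KRT18* were also below -0.5 with *miR-139-3p* in all 10. With a threshold of 1, 3 of 8 keratins were lower than mock after *miR-139-3p* and 1 after *miR-139-5p*. Without the filter on dim probes, 1 of 10 was higher than mock with *miR-139-3p*, and 2 were higher than with *miR-139-5p*. That last count was 0 when the arrays were scaled on the E1A spike-in RNA and 0 with a threshold of 1. Of 60 recomputed counts of the 10 genes, 54 stayed within 1.5 times, and of 297 recomputed differences of single genes, 37 shifted beyond the typical SD among the probes of a gene (a median of 0.28, 0.15 or 0.26, by comparison), 19 lay on another side of the threshold and 0 called ones changed sign. Of 360 recomputed counts of gene lists, 70 moved by over 1.5 times. Among them, beside those given with the lists, 4 other keratins were higher and 3 epithelial transcription factors lower with *miR-139-3p* at a threshold of 1, and 1 cornified envelope gene was lower with no scaling, quantile normalization, the spike-in scaling and the deposited values, against 0. With *miR-139-5p*, cornified envelope genes lower than mock numbered 0 to 4 against 1, and 2 desmosome genes were higher with the spike-in scaling against 0. The median of all protein-coding genes for *miR-139-3p* against mock was -0.15, and -0.36 with no scaling, 0.02 with the percentile over detected probes and -0.35 with the spike-in scaling. For *miR-139-3p* the share of higher calls was 39.5% and became 25.6%, 52.6% and 26.4%, with 28.7% after normexp. For *miR-139-5p* it was 47.4% and became 34.2% with no scaling and 68.0% with the spike-in scaling, and between the miRNAs 38.7% became 53.6% with detected probes and 20.8% with the spike-in scaling. Protein-coding genes lower and higher than mock at a threshold of 1 numbered 1659 and 1111 after *miR-139-3p* and 269 and 212 after *miR-139-5p*. Normexp gave 1149 higher with *miR-139-3p*, and 603 lower and 467 higher with *miR-139-5p*. Signal over background limits *KRT13* and *KRT6A*, and 1 array per group limits all values.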

Other observations

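A probe of a noncoding transcript named for *KRT80* (lnc-KRT80-3:1) read 20.2 in mock cells, 16.7 after *miR-139-5p* and 9.79 after *miR-139-3p*, all well above background. Its log2 differences from mock were -0.20 after *miR-139-5p* and -0.84 after *miR-139-3p*. Another probe named for it (lnc-KRT80-5:1) read 4.2, 6.02 and 6.98 and was well above background on the miRNA arrays only, so no fold is given. *KRT80* itself was at -0.64 and -2.94.

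Of 8 probes named for keratin pseudogenes, 3 were well above background on any array. They were *KRT18P55* and *KRT19P2*, described beside their parent genes, and 1 probe of *KRT42P*, which read 12.3, 8.54 and 10 on the arrays in the order mock, *miR-139-5p*, *miR-139-3p*.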
